A study of Mus musculus with 2 samples.

Results

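The genes of MHC class II antigen presentation were read on 2 single-colour Agilent mouse arrays, 1 for untreated bone marrow-derived macrophages (BMDMs) and 1 for BMDMs treated with IL-4 for 18 h. The set held 10 genes, namely H2-Aa, H2-Ab1, H2-Eb1, H2-DMa, H2-DMb1, H2-DMb2, H2-Oa, H2-Ob, Cd74 and Ciita. The genes were chosen by name and not by a cutoff on their signal, although earlier results of these data were known. They were found on the arrays through the RefSeq transcript that each probe was designed for, and all 10 were present, with 12 of the 39429 gene probes and 10 of the 20656 named genes. Each of the 12 probes was printed in 1 spot, and no outlier flag was set on these spots. BMDMs are macrophages grown from marrow precursors, here for 7 days with M-CSF, and the marrow came from males of the Crif1 f/f strain, aged 8 weeks, on a C57BL/6 background. The floxed Crif1 allele was shared by both conditions, and no Cre driver is named for the array samples. The study's methods give a general number of replicates and mice per group, but the number of mice behind each array RNA and the concentration of IL-4 used for the arrays are not given in the sources used here.

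MHC class II molecules are pairs of an α and a β chain that show peptides from endocytosed proteins to CD4+ T cells, and macrophages, dendritic cells and B cells carry them. The chains assemble with the invariant chain, Cd74, which blocks the groove and guides them to endosomes. There the H2-DM heterodimer removes the last invariant chain fragment and edits the bound peptides, and the H2-O heterodimer restrains H2-DM. Ciita, the class II transactivator, is recruited to the X and Y boxes of the class II promoters and is needed for their transcription. IL-4 is a type 2 cytokine that signals through STAT6 and drives macrophages toward the M2 state. C57BL/6 mice do not express the E α chain, so the product of H2-Eb1 is not paired at their cell surface.

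Values are the background-subtracted intensity of each spot, and differences are log2 signal in IL-4-treated minus untreated BMDMs after each array was scaled to its own 75th percentile. With 1 array per condition there was no replicate check and no test between conditions, so every difference is a description of these 2 arrays. The scanner software put the error of each bright spot at 10% of its intensity, which amounts to 0.20 for a log2 difference between arrays. Probes printed in 10 spots gave a smaller figure, with an SD of the log2 difference between spots of 0.05 to 0.06 at the signal of the bright members, and neither figure covers the spread between cultures. Where the software marked a probe as well above background on only 1 array, the fold is a bound. For it, the dim array was given the lowest signal that counted as well above background there, or the probe's own signal if that was greater. The M2 markers went with the labels: Arg1 was 216-fold, Chil3 14.2-fold and Mrc1 5.33-fold higher on the IL-4 array and Retnla at least 595-fold higher.

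H2-DMa and H2-DMb1 were higher after IL-4 under all 7 scalings tried, while the classical chains differed by at most 1.17-fold as scaled here. By the background flag, 7 of the 10 members were detected on both arrays, 1 with IL-4 only, 1 in untreated cells only and 1 on neither array. Past a cutoff of 2-fold, 1 member, H2-DMa, was higher and 0 were lower. In the background of 14073 named genes with a usable signal on either array, 3.06% lay past this cutoff on the higher side and 3.35% on the lower side. The median log2 difference of the 7 members measured on both arrays was -0.15, beside -0.014 for the 12744 genes measured on both arrays. The sign of the members' median turned with the scaling, to 0.063 (median scaling), 0.048 (quantile) and 0.19 (spike-in), and after quantile normalization it lay above the median of all genes, which was then -0.015.

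**Figure D1:**
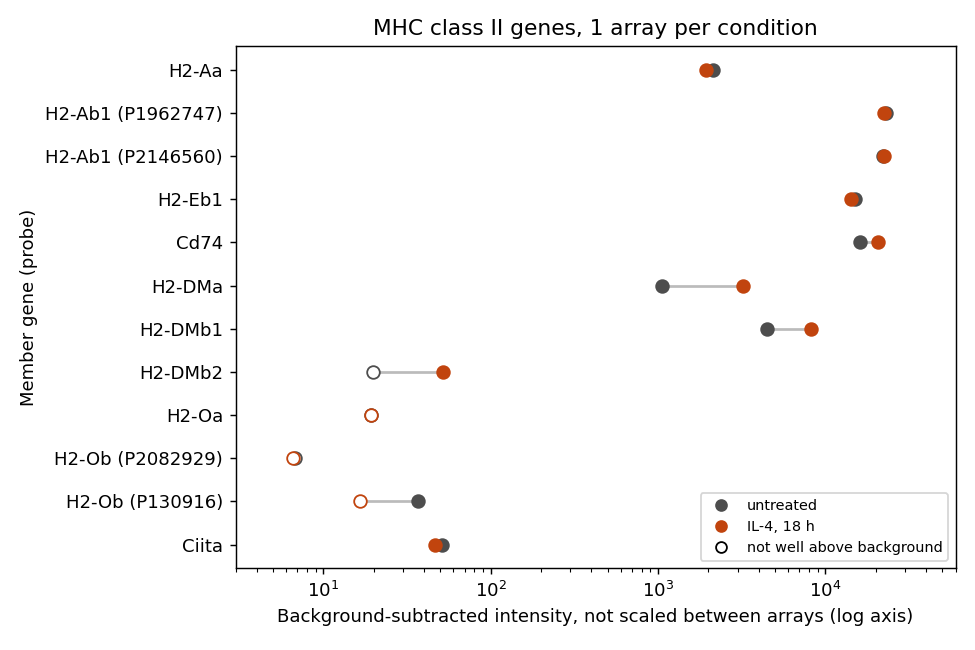
Background-subtracted intensity of each member probe (log axis, not scaled between arrays) in untreated (grey) and IL-4-treated BMDMs (orange), with open circles where the spot was not well above background. H2-DMa moves from 1065 to 3204 and H2-DMb1 from 4455 to 8267, while the points of the classical chains nearly coincide; levels of different probes are not comparable with each other.

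Among the classical chains, H2-Aa encodes the α chain of the A molecule. Its intensity was 2121 before and 1941 after IL-4, a log2 difference of -0.23. H2-Ab1, the β chain that pairs with it, was read by 2 probes. The probe with the higher mean log2 signal over both arrays, from which the gene was read, gave 23106 and 22300, a log2 difference of -0.15, and the other gave 22278 and 22585, a log2 difference of -0.080. For H2-Eb1, the β chain of the E molecule, the intensity was 15020 untreated and 14292 with IL-4, a log2 difference of -0.17. All of these lay near or within the software error of 0.20, and their sign depended on the scaling. It turned for H2-Aa, H2-Ab1 and H2-Eb1 when the arrays were scaled on spike-in controls, to 0.11, 0.19 and 0.17, and for H2-Ab1 and H2-Eb1 with median scaling, to 0.063 and 0.043. No direction is given for the classical chains for that reason.

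Cd74, the invariant chain, had an intensity of 16027 without IL-4 and 20621 with it. This was a log2 difference of 0.26, or 1.20-fold higher, which stayed above 0 under the 6 other scalings, at 0.16 to 0.60. It exceeded the software error of 0.20 by little. Of the 12744 genes measured on both arrays, 1840 had a larger difference than Cd74.

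H2-DMa, the α chain of the peptide editor H2-DM, had an intensity of 1065 without IL-4 and 3204 with it. The log2 difference was 1.49, a 2.81-fold higher signal, and lay between 1.43 and 1.83 under the 6 other scalings. Only 112 of the 12744 genes, or 0.879%, had a larger difference. H2-DMb1, the main β chain of the same heterodimer, went from 4455 to 8267, a log2 difference of 0.79 or 1.73-fold. This is below the 2-fold cutoff as scaled here and above it with median scaling, at 1.01, and with spike-in scaling, at 1.13. A larger difference than that of H2-DMb1 was seen for 433 genes, or 3.40%. Both partners of the heterodimer were thus higher on the IL-4 array by several times the software error of 0.20.

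H2-DMb2, a close paralog of H2-DMb1, was dim. Its intensity was 19.97 in untreated BMDMs, not well above background, and 51.9 with IL-4, where it was well above background. The signal was at least 1.66-fold higher, a bound of 0.73 on the log2 scale. The spot SD at this signal was 0.37 and the software error of the measured difference was 0.67, nearly the size of the bound. The bound depended on the processing, since it was 0.084 with normexp on the median pixel intensity and passed 2-fold with quantile normalization, at 1.16, and with spike-in scaling, at 1.07. The authors' values, read without a bound, gave 1.28. The probe sequences were not used here, so how far the H2-DMb1 and H2-DMb2 probes also bind each other's RNA was not tested.

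**Figure D2:**
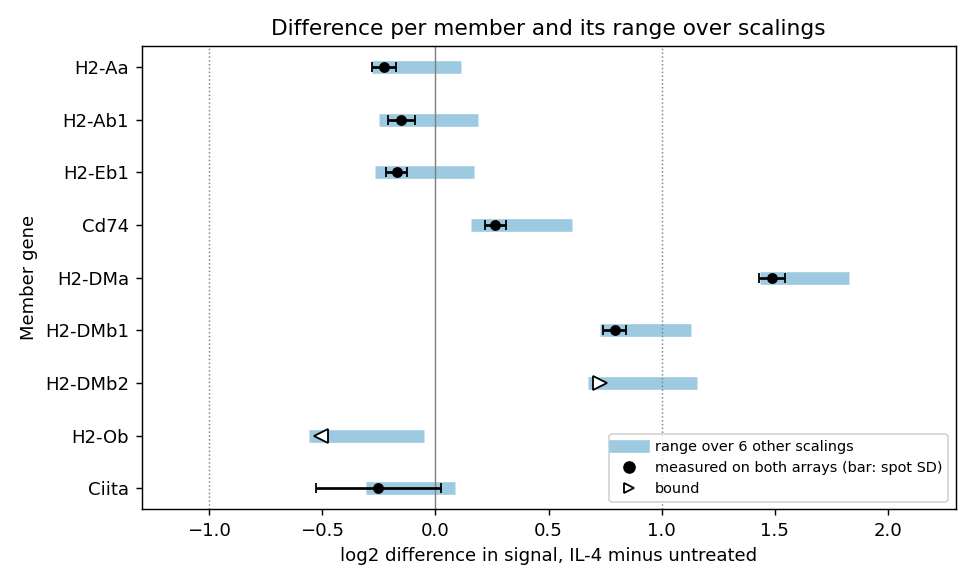
log2 difference of each member (IL-4 minus untreated), with black points for genes measured on both arrays (bars, SD between spots at that signal), open triangles for bounds pointing away from 0, and blue bands for the range over 6 other scalings. The bands of H2-DMa and H2-DMb1 lie between 0.73 and 1.83, whereas those of H2-Aa, H2-Ab1, H2-Eb1 and Ciita include 0.

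The gap between H2-DM and the classical chains can be read within the arrays, where a constant scaling cancels. The difference of H2-DMa exceeded that of H2-Aa by 1.72, that of H2-Ab1 by 1.64 and that of H2-Eb1 by 1.66 on the log2 scale. Over the 6 other scalings and normexp, these gaps lay between 1.46 and 1.73. Only quantile normalization, cyclic loess and normexp could move them, since the other scalings subtract a constant from each array. For H2-DMb1 the gaps were 1.02, 0.94 and 0.96, and lay between 0.90 and 1.14 under the same settings. Cd74 stood between these groups, 0.49, 0.41 and 0.44 above H2-Aa, H2-Ab1 and H2-Eb1. Its gaps lay between 0.39 and 0.63 under the same settings. Each gap carries the software error of 2 differences, and those of Cd74 stand less clear of it than those of H2-DM. The gaps describe these 2 arrays and do not show that the classical chains stayed the same.

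The inhibitors of H2-DM were at the detection limit. H2-Oa, the α chain of H2-O, read 19.4 without and 19.3 with IL-4, well above background on neither array, and no fold is given. H2-Ob, the β chain, was read by 2 probes, 1 of which was well above background on neither array, at 6.83 and 6.63. The other had 37.0 untreated, well above background, and 16.6 with IL-4, not well above background. Its signal was at least 1.42-fold lower, a bound of -0.51. The spot SD was 0.40 and the software error of the measured difference was 0.65, larger in size than the bound. After quantile normalization the bound shrank to -0.051. The dimmest probe that counted as well above background had an intensity of 29.2 in untreated and 27.9 in IL-4-treated cells, so H2-Oa and H2-Ob lie at or under what these arrays resolve.

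Ciita, whose product switches on class II promoters, was dim on both arrays but well above background. Its single probe gave 51.6 without and 46.4 with IL-4, a log2 difference of -0.25. The spot SD at this signal was 0.28 and the software error of the difference was 0.37, both larger than the difference. It turned to 0.048 after quantile normalization and to 0.087 with spike-in scaling. No difference in Ciita was detectable at this signal, where its errors were the largest of the 7 members measured on both arrays.

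**Figure D3:**
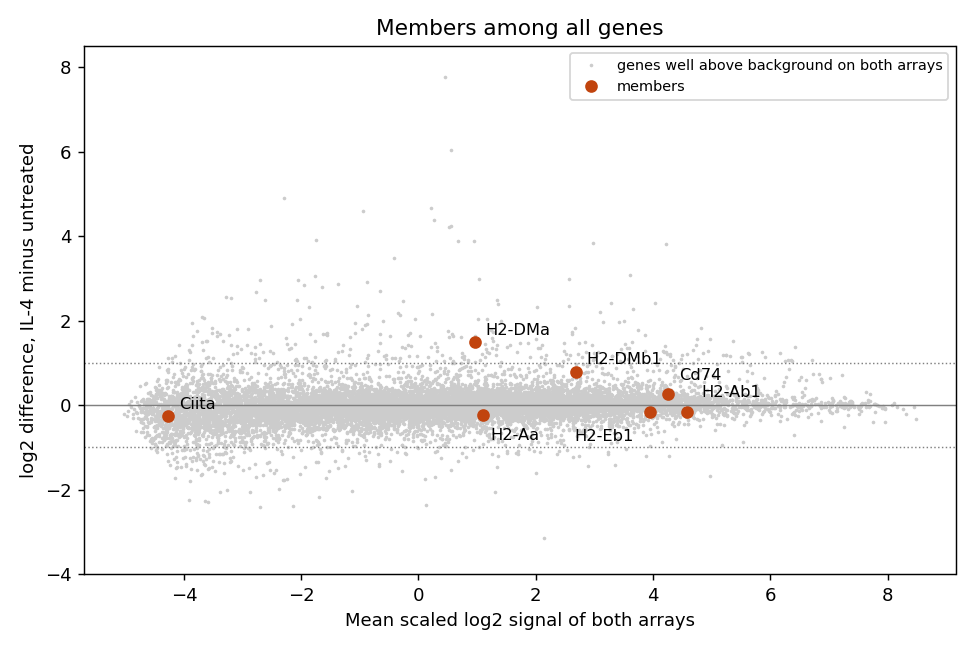
log2 difference (IL-4 minus untreated) against mean scaled log2 signal for the 12744 genes detected on both arrays (grey) and the 7 members among them (orange), with dotted lines at 2-fold. H2-DMa lies above the upper line at 1.49 and H2-DMb1 below it at 0.79, and Ciita lies at the dim end of the plot, where grey points spread widely.

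The promoters of 4 members are shown because they place the boxes that Ciita is recruited to before a gene that was higher after IL-4, a dim gene with a bound, and classical chains with little difference. Each is the 150 bases before the annotated start, 5′ to 3′ on the strand of the gene, from RefSeq on GRCm38.p6. Capitals mark exact matches to ACNGATG, a core of the X1 box, and to GATTGG, the Y box, on either strand (CCAATC is the Y box on the opposite strand).
H2-DMb1, chr17:34153041-34153190, plus strand: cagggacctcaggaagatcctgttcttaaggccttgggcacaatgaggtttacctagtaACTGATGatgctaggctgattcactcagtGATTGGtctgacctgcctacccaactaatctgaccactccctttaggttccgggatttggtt
H2-DMb2, chr17:34145099-34145248, plus strand: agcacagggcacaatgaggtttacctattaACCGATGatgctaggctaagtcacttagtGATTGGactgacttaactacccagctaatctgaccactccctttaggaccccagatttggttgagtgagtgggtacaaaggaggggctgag
H2-Eb1, chr17:34305717-34305866, plus strand: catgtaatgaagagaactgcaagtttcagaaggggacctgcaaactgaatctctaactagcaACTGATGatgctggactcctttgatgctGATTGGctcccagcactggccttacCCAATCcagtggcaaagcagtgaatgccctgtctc
H2-Aa, chr17:34287824-34287973, minus strand: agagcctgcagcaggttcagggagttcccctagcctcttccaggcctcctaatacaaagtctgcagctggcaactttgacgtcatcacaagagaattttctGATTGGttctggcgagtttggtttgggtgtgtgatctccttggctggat

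H2-DMb1, H2-DMb2 and H2-Eb1 carried both boxes in the same order, with 22, 22 and 21 bases between them. An X1-like match followed by a Y box on the same strand at 20 to 23 bases was found in 3 of the 8 windows of the members and in 11 of all 32851 promoter windows, or 0.0335%. This spacing was set after the sequences were seen, so it is a description. H2-DMb1 had a log2 difference of 0.79 and H2-Eb1 one of -0.17, so the same arrangement stood before genes with unlike differences. In the 150 bases shown, H2-Aa had the Y box and no exact match to the X1 core, which says only that these letters are not there.

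The table held 8 windows for 7 members, which were searched over 250 bases before the start, on both strands. A Y box was in 7 of the 8 windows, against 14.6% of all windows, and an X1-like match in 5, against 8.31%. In H2-Aa the X1-like match lay 226 to 232 bases before the start, on the opposite strand and away from the Y box. TGCGTCA, an X2-like sequence, was in 0 of the 8 windows and 1.75% of all. Only these exact letters were searched, so this does not show that the members lack an X2 box. The H2-Aa sequence above, for example, holds tgacgtca, which was not searched. TTCNNNNGAA, the spacing that STAT6 prefers, was also in 0 of the 8 and in 5.85% of all. TTCNNNGAA, the GAS element of interferon-γ responses, was in 1, that of H2-DMb2, and in 7.02% of all. The H2-DMb2 match reads TTCCTGGAA, the same letters that the study lists as a putative STAT6 site in the human GDF15 promoter. The 0 for the STAT6 spacing above therefore does not cover every site STAT6 may use, and binding was not tested. The 2 windows of H2-DMa held 1 Y box, 194 to 199 bases before 1 of its annotated starts, and no X1-like match. Whether either start is that of the probe's transcript, or the one these macrophages use, is not known. The windows therefore do not show that the H2-DMa promoter in use lacks an X1 box.

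Apart from Cd74 and Ciita, the members lie together in the class II region of chromosome 17, and 5 other protein-coding genes lie among them. In order the region runs from H2-Oa through Brd2, H2-DMa, H2-DMb2 and H2-DMb1 to Psmb9, Tap1, Psmb8, Tap2, H2-Ob, H2-Ab1, H2-Aa and H2-Eb1. The H2-DM genes are adjacent. Brd2, a bromodomain protein on the side of H2-DMa, gave 0.21 and 0.014 with its 2 probes on the log2 scale, and Psmb9, an immunoproteasome subunit on the side of H2-DMb1, had 0.20. Tap1 and Tap2, the peptide transporter of the class I pathway, had -0.059 and 0.056, and the immunoproteasome subunit Psmb8 had 0.27. Of these 5 neighbours, 0 passed 2-fold, which with shares of 3.06% and 3.35% over all genes is no result about them, and they were read after the members' values were seen.

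**Figure D4:**
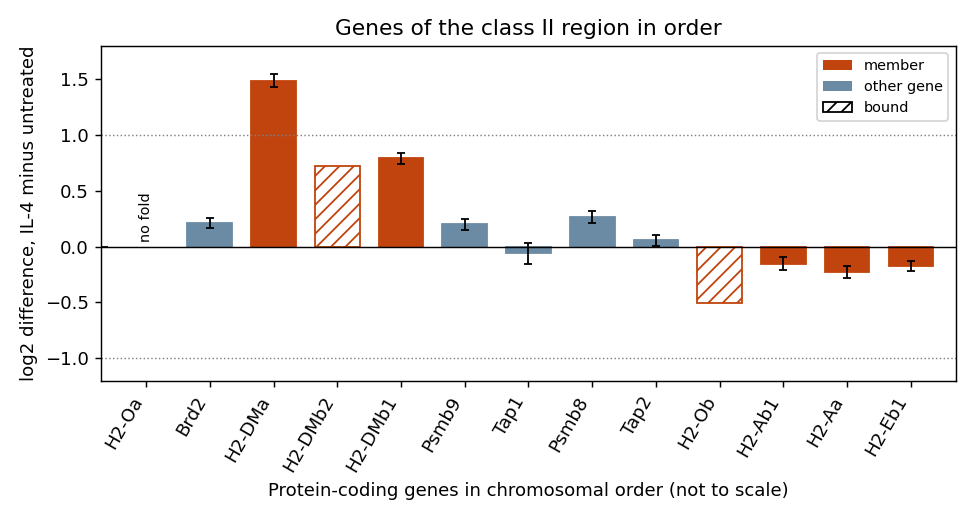
log2 difference (IL-4 minus untreated) of the 13 protein-coding genes of the class II region in chromosomal order, members in orange and other genes in blue, with hatched bars for bounds and error bars for the SD between spots. The bars of H2-DMa, H2-DMb2 and H2-DMb1 stand side by side at 1.49, 0.73 and 0.79, the highest of the region; H2-Oa has no fold.

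The wider class II pathway was read from a list of 29 genes, of which 28 had a probe matched and 27 were detected well above background. In this list 2 genes passed 2-fold on the higher side and 0 on the lower, with a median log2 difference of 0.017 over the 26 measured on both arrays, against the 3.06% and 3.35% of all genes. The locus of the E α chain, H2-Ea, had no probe matched.

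In the group of factors upstream of Ciita, Irf4, a factor that IL-4 induces through STAT6, had an intensity of 35.4 untreated, not well above background, and 970 with IL-4, and was at least 25.6-fold higher. Irf1, which acts on the interferon-γ-responsive Ciita promoter, had a log2 difference of 0.61, from 6175 to 10075. This was read from 1 of its 2 probes, and the other was well above background on neither array. The interferon-γ receptor chains Ifngr1 and Ifngr2 had 0.18 and 0.40, and Jak1 had 0.071. Spi1 and Irf8, partners in myeloid transcription, had 0.23 and -0.12. Stat6 had -0.23 to -0.29 over its 3 probes. Apart from Irf4, the factors measured here differed by less than 2-fold.

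The complex that holds Ciita on the promoter had 7 genes in the list, and 6 were measured on both arrays, between -0.54 and 0.50. Nfya, a subunit of the Y box factor NF-Y, was highest, going from 1286 to 1954, a log2 difference of 0.50. Its partners Nfyb and Nfyc had 0.17 and -0.15 at their brightest probes, and the other probe of Nfyc had 0.041. Rfxank and Rfxap, which bind the X1 box with Rfx5, had -0.18 and -0.54, the latter at an intensity of 77.7 untreated and 57.2 with IL-4. Rfx5 itself was well above background on neither array. The X2 box factor Creb1 had -0.059 at its brighter probe and -0.37 at the other.

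The 10 genes of antigen and invariant chain processing were detected in both conditions, with log2 differences between -0.40 and 0.37. Ctss, cathepsin S, which trims the invariant chain in macrophages, dendritic cells and B cells, had an intensity of 126549 untreated and 136949 with IL-4, a log2 difference of 0.014. Ifi30, the thiol reductase GILT, and Ctsz had 0.37 each. Ctsd and Ctsh, lysosomal proteases, had -0.40 and -0.39, and the second probe of Ctsd had -0.81. Lgmn, an asparaginyl endopeptidase, had 0.019. Sppl2a, which clears the last membrane fragment of the invariant chain, had 0.16. Cst3, a cathepsin inhibitor, read 54222 and 58096, which scaling brought level. No gene of this group reached 2-fold.

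Genes that set how long class II molecules stay at the cell surface were 3 in the list. Cd83, which restrains the ubiquitin ligase MARCH1, read 2350 without and 6411 with IL-4, a log2 difference of 1.35 or 2.55-fold higher. Marchf1, which encodes MARCH1, gave opposite readings at its 2 probes, 0.50 at the brighter and -1.03 at the dimmer, so no direction is given. Marchf8, its relative, had -0.10.

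**Figure D5:**
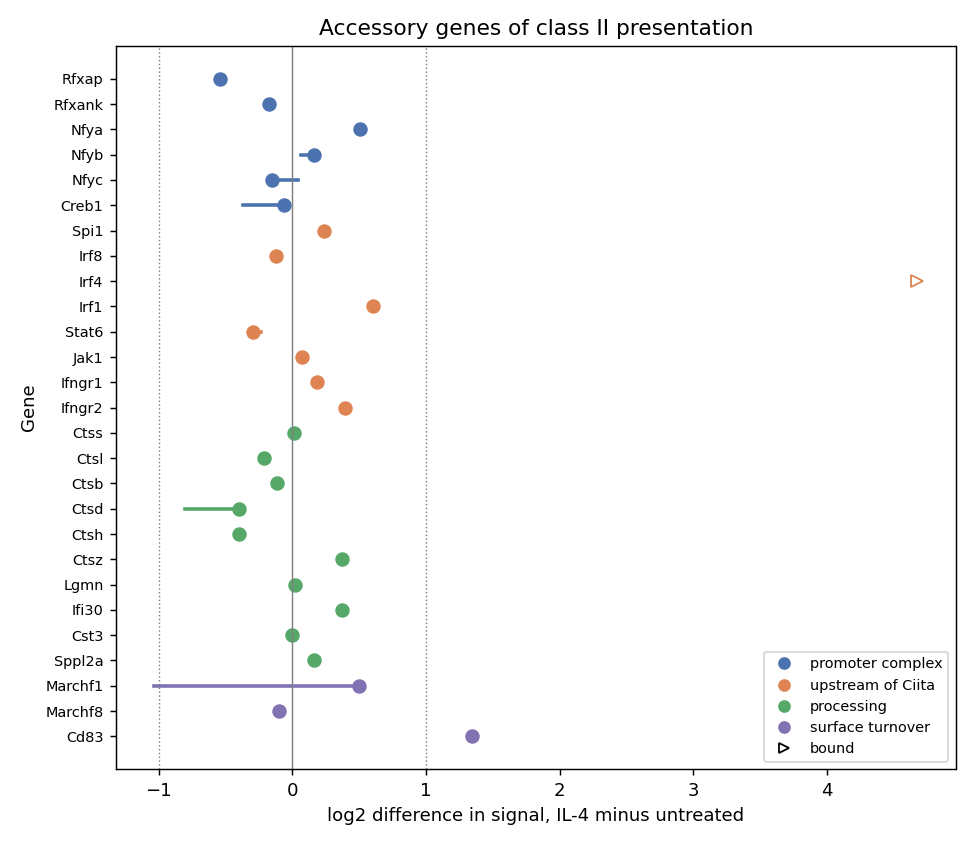
log2 difference (IL-4 minus untreated) of the 27 pathway genes detected well above background, coloured by role, with lines over the range of a gene's probes and a triangle for a bound. Irf4 at 4.68 and Cd83 at 1.35 lie beyond the dotted 2-fold line, and the other brightest probes lie between -0.54 and 0.61.

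Class II genes are also expressed by dendritic cells and B cells, so their markers were read on the same arrays. Of 7 B cell markers, 2 were well above background, Cd79b and Cd22, and Cd79a, Ms4a1, Pax5, Blk and Vpreb3 were not. The summed intensity of the 7 B cell markers was 1003 untreated and 774 with IL-4. Of 10 dendritic cell markers, 5 were well above background in both conditions, and Flt3, Xcr1, Clec9a, Dpp4 and Cd209a on neither. Among the 5, Batf3 was 18.8-fold higher with IL-4, at 312 untreated and 6271 with IL-4, and Itgax 1.65-fold higher, while Zbtb46 was dim at 48.2 and 36.1. Siglech and Ccr7 had log2 differences of 0.024 and -0.094, and only 1 of the 2 Siglech probes was well above background. The summed intensity of the 10, not scaled between arrays and with the 5 dim probes included, was 44389 untreated and 64278 with IL-4. Most of it came from Siglech, at 29067 and 31659, and Itgax, at 14856 and 26198. Levels of different probes are not comparable, so neither this sum nor that of the B cell markers measures a number of cells. The part of these cells in the H2-DM difference was not tested.

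Of 7 macrophage markers, 6 had a probe matched and were well above background on both arrays. Adgre1 and Csf1r had log2 differences of 0.17 and 0.090 at their brightest probes, with -0.11 at the lowest of the 3 Csf1r probes. Cd14, Fcgr1 and Mertk had -1.42, -1.23 and -1.14 and were more than 2-fold lower after IL-4. Itgam had -0.71 at its brightest probe and -0.24 at the highest of its 3 probes. Of 6 T cell markers, 3 were well above background and none of them was 2-fold higher or lower. The 5 neutrophil markers with a probe matched lay between -0.61 and 0.30. In bulk RNA, fewer cells of a type and less RNA per cell cannot be told apart.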

How the data were processed

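The authors hybridised Cy3-labelled RNA to 1-colour Agilent mouse arrays, 1 per condition. The deposited scanner files (Feature Extraction 10.10.1.1) give a spot intensity after background subtraction and detrending, with no scaling between arrays, and flags for outliers and background. A second deposited table holds the authors' own log2 values, whose centring is not given in the sources used here, and it served as an alternative. Control and outlier spots were dropped, log2 intensity was averaged over a probe's spots, and each array's 75th percentile was subtracted. A gene was read from its brightest probe by mean log2 signal. RefSeq accessions named 27234 of 39429 probes through a GRCm38.p6 table. The design was annotated on mm9, so that table gave names and gene order, and promoter coordinates are those of GRCm38.p6. On the untreated array 59.8% and with IL-4 57.4% of gene spots were well above background, and 0 were saturated. Precision is limited by the number of arrays.

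The members and lists were chosen with earlier results of these data known. All members are named, with pathway genes past 2-fold or named by role, and markers, apart from items that are not reported here and were left out of the list counts. Box spacing and region neighbours were added after values were seen. Counting past a cutoff was tested on simulated data, with changes well past the cutoff and less noise than dim members have. This checked the counting only and does not cover calls for dim members. Alternatives were 6 other scalings, normexp (offset 50, on median pixel intensity), flagged spots kept, the authors' values, other filters and cutoffs, and the median over probes. Tools were limma 3.58.1 in R 4.3.3 and, in Python 3.11.15, pandas 2.3.3 with numpy 2.4.6.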

Additional observations from a re-analysis of the deposited data

How the results depend on the processing

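No paired analysis was possible because only 1 array was made for either condition. Scaling shifted all genes together: the median of genes on both arrays, at -0.014, became 0.20 with median scaling and 0.33 with spike-in scaling on 8 probes. The median log2 difference of the members, at -0.15, moved to 0.063 with median scaling, 0.048 with quantile normalization, -0.047 with cyclic loess, -0.051 when arrays were left unscaled, 0.19 with spike-in scaling and -0.057 with normexp. Members at least 2-fold higher, 1 here, numbered 2 with median scaling or quantile normalization, 2 for the authors' table, 2 when no filter was set, 3 with spike-in scaling, 3 at a cutoff of 1.5-fold and 0 at 4-fold. Members at least 2-fold lower, 0 here, numbered 1 with the authors' processed values and 1 with no filter, where H2-Ob was read without a bound, at -1.25. H2-DMa kept a difference of 1.41 to 1.83 under the 11 alternatives. Pathway genes past 2-fold stayed at 2 higher and 0 lower under the 7 alternatives run for them. Filters and cutoffs act by construction, and beyond the shift of all genes the cause of the moves between scalings was not tested. Signal over background limits H2-DMb2, H2-Oa, H2-Ob and Ciita.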

Other observations

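The X1-like and Y box pair at the spacing described above was also found before 7 genes that are not members. H2-Eb2, a relative of H2-Eb1 that was not on the member list, had an intensity of 7.51 in untreated and 19.2 in IL-4-treated BMDMs, well above background on neither array, as was Gmnc. For Mtm1 the 2 probes gave 0.30 and 0.31 on the log2 scale, while BC051142 had -0.16 and Scaper had -0.42. Gm16958 and Gm52728 had no probe matched. These values were read after the spacing was set, and none of the 3 measured genes reached 2-fold.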
